A study of Mus musculus with 31 samples.

Results

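Prostaglandin E2 is a lipid mediator made from arachidonic acid by the cyclooxygenases (*Ptgs1* and *Ptgs2*, the latter inducible) and then by the prostaglandin E synthases (*Ptges*, inducible, and *Ptges2*). It is inactivated by 15-hydroxyprostaglandin dehydrogenase (*Hpgd*) and acts through the EP receptors (*Ptger1* to *Ptger4*), of which those encoded by *Ptger2* and *Ptger4* raise cAMP. Glucocorticoids (GCs) are known in many tissues to lower *Ptgs2* and *Ptges* and to act in part through annexin A1 (*Anxa1*), a phospholipid-binding protein that limits arachidonic acid release and signals through formyl peptide receptors. These 10 genes were taken by symbol from the gene-level counts, in which each matched 1 gene, and are described across all 8 groups of tumors and cultures.

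The line 20967 is a mouse melanoma line, given in the labels the C57BL/6 genotype Nras+LSL-G12D;Tyr::CreERT2+/o, meaning an activating *Nras* allele behind a stop cassette and a tamoxifen-inducible Cre driven by the tyrosinase promoter. Parental cells and a GR KO derivative, in which *Nr3c1* (the gene of the glucocorticoid receptor, GR) was edited with Cas9 ribonucleoprotein before cells were plated singly and clones were checked for GR, were compared. Both were implanted intradermally in wild-type C57BL/6 mice, whose own cells keep a working receptor, and 5 tumors of each line received control cream and 5 received GC as 0.05% clobetasol propionate ointment 3 times weekly. Both lines were also grown *in vitro* for 48 h with the solvent DMSO (n = 3 each) or clobetasol propionate (n = 2 parental, n = 3 GR KO), at a dose given as 10 µM in the treatment label and as 1 µM in the library names. How many clones make up GR KO is not stated, and a difference between GR KO and parental samples cannot be told apart from one that arose in cloning. Nothing says that replicate cultures were grown apart, so that p-values for cells measure only the spread between these samples.

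Libraries were 3′ mRNA tags, which read the end of each transcript. Total counts ran from 15528066 to 26386770 in tumors and from 14441166 to 22463188 in cells. Levels are CPM scaled by the trimmed mean of M values (TMM), written CPM, with tumors and cells scaled apart. A floor of 3 counts per library, which covers counting error only, corresponded to 0.112 to 0.220 CPM in tumors and 0.136 to 0.207 CPM in cells. A gene was called when edgeR gave a Benjamini-Hochberg adjusted p under 0.05 and a fold change of at least 1.5, over 15919 genes in tumors, 12525 in cells and 16273 in both together.

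The labelled cell type was only thinly visible in melanocyte markers. *Dct*, *Tyr*, *Mlana*, *Sox10* and *Slc45a2* had 0 counts in every culture, and *Mitf*, the most abundant of the 8 listed melanocyte genes, lay between 3.01 and 11.7 CPM there. In tumors *Tyr* was at 0 in every library and *Mitf* ran from 19.7 to 49.2 CPM. The samples are therefore called tumors and cells of line 20967 here.

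*Nr3c1* transcript tags were present in every library. In control tumors parental replicates gave 63.4, 57.1, 44.9, 55.6 and 52.2 CPM and GR KO replicates gave 20.7, 27.3, 31.4, 31.8 and 23.5 CPM. With GC, parental tumors gave 53.4, 24.4, 48.2, 37.3 and 49.8 CPM, and GR KO tumors 47.9, 21.7, 58.0, 32.5 and 49.4 CPM. The lines were thus separated in control tumors and overlapped fully with GC. In cells the parental values were 33.2, 30.0, 35.6 (DMSO), 39.5 and 33.4 CPM (GC), against 24.8, 21.0, 16.4 (DMSO), 20.9, 22.5 and 13.1 CPM (GC) in GR KO cells. *Nr3c1* fell by 1.02 on the log2 scale in GR KO control tumors (SE 0.24, edgeR adjusted p = 0.0313), a call lost without any 1 of 8 of the 10 libraries (GR KO replicates 1, 2 or 5 or any parental replicate; edgeR adjusted p = 0.0525 to 0.0859). In DMSO cells it was -0.67 (SE 0.22, edgeR adjusted p = 0.0840). With detected genes as a covariate the value in control tumors was -0.63 and not called (edgeR adjusted p = 0.356). The level of *Nr3c1* tags is not used here to check the knockout.

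The GC-responsive gene *Tsc22d3* checks the labels more directly. Its levels were 71.8 ± 18.8 (control) and 363 ± 113 CPM (GC) in parental tumors, and 65.8 ± 16.0 and 225 ± 35.7 CPM in GR KO tumors (SD, n = 5 each). It rose in both kinds of tumor (log2 fold change 2.34, SE 0.25, edgeR adjusted p = 1.61e-05, and 1.77, SE 0.25, edgeR adjusted p = 0.000403), and the difference between these effects was 0.57 (edgeR adjusted p = 0.347). In cells it went from 13.5 ± 2.56 (SD, n = 3) to 115 ± 1.99 CPM (SD, n = 2) in parental cells and from 17.9 ± 1.82 to 17.3 ± 3.05 CPM (SD, n = 3 each) in GR KO cells. It rose with GC in parental cells (3.09, SE 0.20, edgeR adjusted p = 2.28e-05), was -0.05 in GR KO cells, and the difference was 3.14 (edgeR adjusted p = 0.000332).

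One group of tumor libraries stood apart before any result is read. In 4 of the 5 GR KO control tumors the TMM factors were 0.753, 0.816, 0.919 and 0.819, and the 10 most abundant genes took 13.8% to 22.8% of counts. Replicate 4 of that group had a factor of 1.10 and a share of 7.39%. Across the other 3 tumor groups factors ran from 0.914 to 1.13 and shares from 6.69% to 13.6%. At an equal depth of 15528066 counts the 5 GR KO control libraries held 13399, 14794, 15142, 16780 (replicate 4) and 14265 detected genes, while the others held 15155 to 16916. In these 3 measures replicate 4 lay within the range of the other groups. Its mitochondrial share of counts (1.15%) did not, since the GR KO control libraries held 0.587% to 1.15% and all others 1.25% to 2.47%. Results that rest on this group are therefore given also without replicate 4, or with the number of detected genes as a covariate (an alternative added after seeing the data). This was done for members, *Nr3c1* and the pathway and marker genes called with GC, where either changes a call or moves a value by over 1.5 times.

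Members called by edgeR ran from 0 in 7 of 11 comparisons to 8 of 10 in GR KO control tumors against DMSO cells. In parental tumors GC changed 0 of 10 members by edgeR (1 at an unadjusted p under 0.05, 0 by DESeq2), where 0.779% of all genes were called. In GR KO tumors 2 of 10 were called, *Ptges* down and *Anxa1* up, against 6.42% of all genes. The difference between the 2 GC effects was called by edgeR for 0 of 10 members (4 at an unadjusted p under 0.05, 0 by DESeq2), with 0.195% of genes. GR KO against parental gave 0 of 10 by edgeR among control tumors (2 unadjusted, 0 by DESeq2; 2.25% of genes) and 0 of 10 among GC tumors (2 unadjusted, 0 by DESeq2; 0.634% of genes). In cells, where 7 members passed the filter on low counts, GC gave 0 of 7 by edgeR in the parental line (2 unadjusted, 1 by DESeq2; 0.878% of genes) and 0 of 7 in GR KO (0 unadjusted, 0 by DESeq2; 0% of genes, 237 unadjusted). The difference in cells was called by edgeR for 0 of 7 (2 unadjusted, 0 by DESeq2; 0.295% of genes). Between the lines under DMSO, 4 of 7 were called, *Ptges*, *Ptgs1* and *Ptger4* down and *Ptgs2* up in GR KO, against 8.22% of genes. Control tumors against DMSO cells gave 4 of 10 in the parental line and 8 of 10 in GR KO, against 46.7% and 54.8% of genes. The GC effects and the comparisons between lines share control groups, so their values are set side by side and not counted as separate support.

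**Figure D1:**
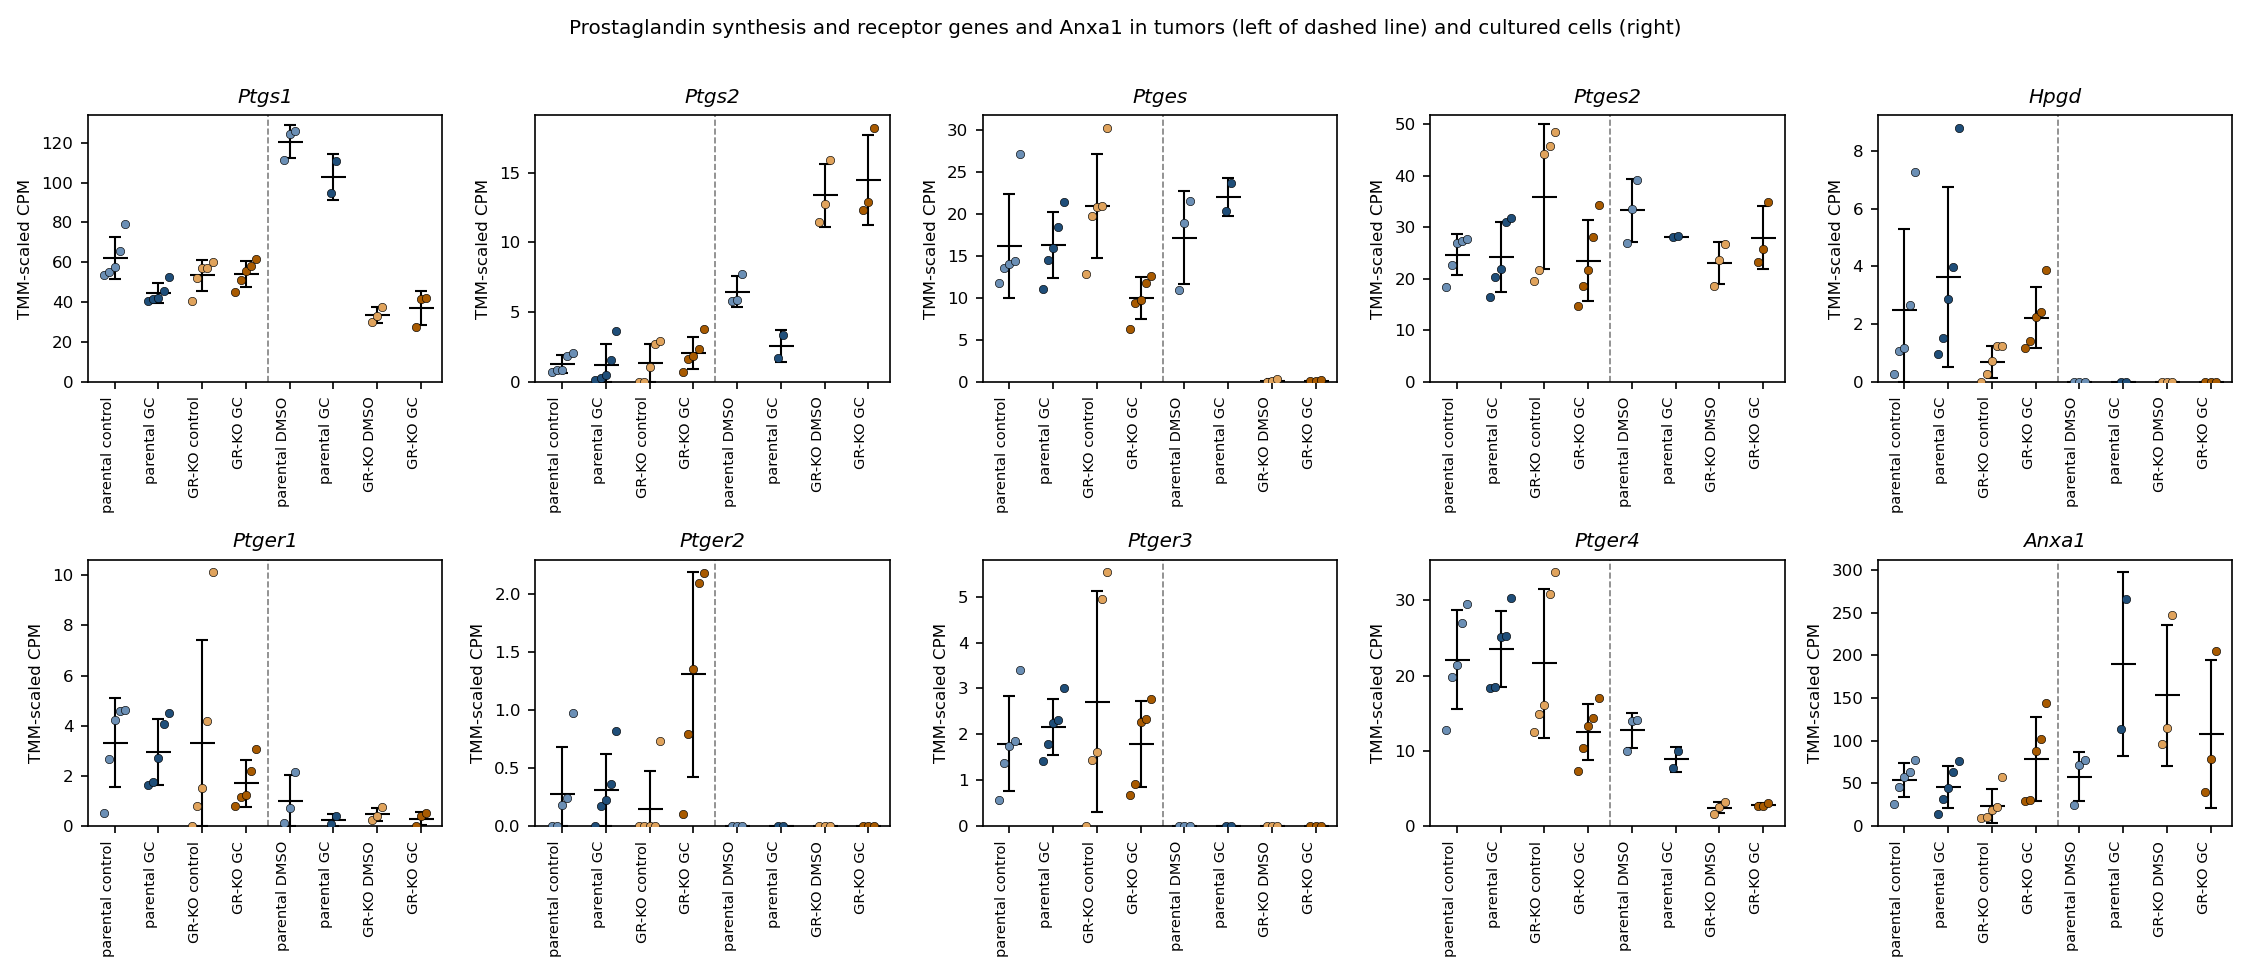
Level of each of the 10 genes in every sample (points), with the group mean (bar) and SD (whiskers, ending at 0 where they would pass it); the vertical axes are TMM-scaled CPM, tumors left of the dashed line and cells right of it. *Ptges* lies between 0 and 0.334 CPM in all 6 GR KO cultures and between 10.96 and 23.6 CPM in all 5 parental cultures.

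*Ptgs1*, the constitutive cyclooxygenase, was read from many counts in every sample. Parental control tumors had 65.7, 55.0, 79.1, 53.5 and 57.5 CPM, and parental GC tumors 42.0, 41.5, 52.7, 40.3 and 45.4 CPM. All 5 GC values lay below all 5 control values. Means were 62.2 ± 10.6 CPM for control cream and 44.4 ± 5.01 CPM for ointment (SD, n = 5 each). The log2 fold change was -0.49 (SE 0.17), not called by edgeR (adjusted p = 0.186), while an exact two-sided permutation test of *Ptgs1* alone gave p = 0.00794, the smallest that 5 against 5 samples allow. Control tumors of GR KO had 57.2, 60.0, 57.1, 52.2 and 40.6 CPM and GR KO GC tumors 55.4, 50.9, 61.6, 45.1 and 57.9 CPM. These groups overlapped, with 53.4 ± 7.70 and 54.2 ± 6.40 CPM (SD, n = 5 each) and a log2 fold change of 0.02. The difference between the GC effects was -0.51 (SE 0.23, edgeR adjusted p = 0.225). In bulk tumors, fewer cells of a type and less RNA per cell cannot be told apart.

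*In vitro* the lines were far apart in *Ptgs1*. Parental DMSO cells had 111, 126.1 and 124 CPM and GR KO DMSO cells 30.0, 32.9 and 37.6 CPM, without overlap. *Ptgs1* fell by 1.85 on the log2 scale in GR KO cells (SE 0.18, edgeR adjusted p = 7.61e-05), from 121 ± 8.18 to 33.5 ± 3.84 CPM (SD, n = 3 each). The call was kept without any 1 of the 6 libraries (-1.94 to -1.77). GC cultures had 94.8 and 111 CPM in the parental line, both below the DMSO values (log2 fold change -0.23, edgeR adjusted p = 0.712), and 27.3, 42.2 and 41.7 CPM in GR KO (0.15, edgeR adjusted p = 0.976). On a scale shared by all 31 samples, parental cells stood highest (123 and 105 CPM), separated from parental control tumors (61.5 CPM), and GR KO cells lowest (37.1 and 34.4 CPM). From parental control tumors at 61.5 CPM down to GR KO cells, each group's range overlapped that of the next. Parental control tumors thus held less *Ptgs1* than parental cells (log2 fold change -1.0003, SE 0.17, edgeR adjusted p = 1.13e-05), and GR KO tumors more than GR KO cells (0.64, SE 0.18, edgeR adjusted p = 0.00287). Without GR KO DMSO replicate 1 the latter was 0.57, a fold under 1.5. Tumors hold host cells that cultures lack, and these comparisons cannot separate that from a difference within cells of line 20967.

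*Ptgs2*, the inducible cyclooxygenase, was near the lower end of detection in tumors. Parental control tumors had 0.701, 1.82, 0.823, 0.866 and 2.09 CPM, and parental GC tumors 0.255, 3.61, 1.59, 0.148 and 0.513 CPM. GR KO control tumors had 0, 0, 1.02, 2.90 and 2.70 CPM and GR KO GC tumors 1.65, 1.83, 2.38, 3.81 and 0.727 CPM. All 4 groups overlapped, and 2 GR KO control libraries held no count. The log2 fold changes with GC were -0.05 (SE 0.98, edgeR adjusted p = 0.990) in parental and 0.64 (SE 0.98, edgeR adjusted p = 0.729) in GR KO tumors. The latter was 0.32, 0.32, 1.15 and 1.05 without GR KO control replicates 1, 2, 4 and 5 and 0.30 without GC replicate 4. Standard errors were wide, and edgeR called no difference of *Ptgs2* between tumor groups.

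Cells gave a clearer reading of *Ptgs2*. Parental DMSO cells had 7.74, 5.85 and 5.82 CPM and parental GC cells 1.72 and 3.35 CPM, without overlap. The log2 fold change was -1.33 (SE 0.33), which edgeR did not call (adjusted p = 0.119) and DESeq2 did (adjusted p = 0.00943). An exact permutation test of 2 against 3 samples cannot go below p = 0.1. GR KO cells had 11.5, 15.9 and 12.8 CPM with DMSO and 18.2, 12.9 and 12.3 CPM with GC, overlapping (0.11, edgeR adjusted p = 0.980). The difference between these effects was -1.44 (SE 0.42, edgeR adjusted p = 0.341), so that a lower *Ptgs2* with GC in parental cells was not shown to differ from GR KO cells. Under DMSO all 3 GR KO values were above all 3 parental ones, and *Ptgs2* rose by 1.05 on the log2 scale (SE 0.27, edgeR adjusted p = 0.0344), from 6.47 ± 1.10 to 13.4 ± 2.27 CPM (SD, n = 3 each). That call was lost without any 1 of the 6 libraries, with edgeR adjusted p = 0.0611, 0.141 and 0.0743 (without GR KO replicates 1, 2 and 3) and 0.0607, 0.103 and 0.0919 (without parental replicates 1, 2 and 3) and log2 fold changes of 0.91 to 1.19. The same call was lost with the replicate number as a block.

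Across all 31 samples *Ptgs2* was ordered with GR KO cells highest (14.6 and 13.7 CPM), then parental DMSO cells (6.60 CPM), then parental GC cells (2.60 CPM) and the tumors (2.04 to 1.20 CPM), with overlap between neighbours from parental GC cells downward. Control tumors held less *Ptgs2* than DMSO cells in both lines, by -2.39 (SE 0.83, edgeR adjusted p = 0.0187) in the parental line and -3.31 (SE 0.84, edgeR adjusted p = 0.00136) in GR KO. Without parental DMSO replicate 1 the parental value was -2.24 with an edgeR adjusted p = 0.0540.

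*Ptges*, the inducible prostaglandin E synthase coupled to *Ptgs2*, was the member whose GC effect was called down in GR KO tumors. Control tumors of GR KO had 21.0, 20.8, 30.2, 19.8 and 12.8 CPM and GR KO GC tumors 12.6, 6.25, 11.8, 9.75 and 9.35 CPM. Every GC value was below every control value, by a narrow margin at the edge (12.6 against 12.8 CPM). *Ptges* fell by 1.07 on the log2 scale (SE 0.28, edgeR adjusted p = 0.0253), from 20.9 ± 6.20 to 9.95 ± 2.48 CPM (SD, n = 5 each), with an exact permutation p = 0.00794. Parental tumors had 14.0, 11.7, 13.6, 14.3 and 27.1 CPM in control and 21.4, 11.1, 14.5, 18.4 and 15.9 CPM with GC, overlapping throughout (0.01, SE 0.28, edgeR adjusted p = 0.992). The difference between the GC effects, 1.08 (SE 0.39), was not called (edgeR adjusted p = 0.142), so the fall was not shown to differ from parental tumors. Between the lines, *Ptges* was 0.37 in control tumors (edgeR adjusted p = 0.463) and -0.71 in GC tumors (edgeR adjusted p = 0.324).

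The call on *Ptges* in GR KO tumors lay close to the threshold. It was lost without GR KO control replicate 1 (edgeR adjusted p = 0.0502), 2 (0.0502) or 3 (0.0622) and without GR KO GC replicate 2 (0.0509), 3 (0.0575) or 5 (0.0671), while the log2 fold change stayed between -1.20 and -0.90. With detected genes as a covariate *Ptges* was -1.17 (edgeR adjusted p = 0.0647), and in a fit of both GR KO tumor groups alone -1.07 (edgeR adjusted p = 0.0647). The mitochondrial share of counts also separated these groups, at 0.587% to 1.15% in GR KO control and 1.48% to 1.99% in GR KO GC tumors. Over the 20 tumors *Ptges* ran against that share (r = -0.43, rho = -0.45, n = 20), whose part in the fall was not tested. The count of all genes called moved more, from 1022 to 429, 485 and 2404 without GR KO control replicates 1, 2 and 4 and to 543, 300 and 394 without GR KO GC replicates 1, 3 and 5.

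Skin and muscle markers moved in the same tumors as *Ptges*. Over the 20 tumors *Ptges* correlated with the summed keratinocyte markers (Pearson r = 0.69, Spearman rho = 0.64, n = 20) and striated muscle markers (r = 0.70, rho = 0.80, n = 20), as a description over tumors that share groups. The 8 keratinocyte genes summed to 4824, 5215, 4188, 3009 and 3119 CPM in GR KO control tumors and to 1754, 2006, 2479.6, 2609.7 and 2287 CPM in GR KO GC tumors, without overlap. *Krt14* was the most abundant (497 to 3448 CPM over 20 tumors) and none was at 0. Of these 8 genes edgeR called 4 with GC in GR KO tumors, against 6.42% of all genes, of which 2 fell (*Dsp* by 1.18 on the log2 scale, SE 0.20, edgeR adjusted p = 0.00227, and *Krt14* by 1.42, SE 0.39, edgeR adjusted p = 0.0302) and 2 rose (*Krt1* by 1.85, SE 0.32, edgeR adjusted p = 0.00234, and *Krt10* by 2.13, SE 0.49, edgeR adjusted p = 0.0136). The 5 muscle genes, led by *Acta1* (123 to 484 CPM) with none at 0, summed to 434.5, 432.6, 585.9, 527.8 and 291.9 CPM in control and to 268.3, 349.7, 355.9, 247.7 and 258.8 CPM with GC. Of them *Myh4* fell by 1.33 (SE 0.35, edgeR adjusted p = 0.0268). *Dsp* and *Krt1* kept their call without each library in turn. *Krt10* lost it without GR KO GC replicate 5 (1.54, edgeR adjusted p = 0.0640), *Krt14* without control replicate 1, 2 or 3 or GC replicate 1, 2, 3 or 5 (edgeR adjusted p = 0.0552 to 0.0881) and *Myh4* without control replicate 1 or GC replicate 3 or 5 (edgeR adjusted p = 0.0613 to 0.0842). Under the covariate of detected genes *Krt14* lost its call (-0.78, edgeR adjusted p = 0.351), and the other 4 kept it. The part of these tissues in the fall of *Ptges* was not tested.

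In cells, *Ptges* gave the widest separation of any member. Parental DMSO cells had 18.9, 10.96 and 21.6 CPM and parental GC cells 20.4 and 23.6 CPM. GR KO cells had 0, 0.334 and 0.0538 CPM with DMSO and 0.228, 0.0945 and 0.126 CPM with GC, which is 8 counts in all 3 DMSO libraries together and 8 in the GC libraries. *Ptges* fell by 6.92 on the log2 scale in GR KO DMSO cells (SE 0.61, edgeR adjusted p = 4.74e-05), from 17.2 ± 5.52 to 0.129 ± 0.179 CPM (SD, n = 3 each). It stayed called without any 1 of the 6 libraries, between -9.001 and -6.37. Both GR KO means lay under the floor of 3 counts per library (0.154 CPM with DMSO and 0.167 CPM with GC). Taken against that floor the parental DMSO mean was 112-fold higher, or 6.80 on the log2 scale. With GC edgeR called no change in parental cells (0.36, adjusted p = 0.784) or in GR KO cells (adjusted p = 0.995), where no fold is given.

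The low level of GR KO cells was not seen in whole tumors of that line, which hold host cells besides, so that the level within cells of line 20967 in tumors is not known from these data. GR KO control tumors held more *Ptges* than GR KO DMSO cells by 7.18 on the log2 scale (SE 0.58, edgeR adjusted p = 8.16e-12), or 7.05 (133-fold) against the floor of 3 counts per library, and parental tumors and cells differed by -0.14 (SE 0.36, edgeR adjusted p = 0.783). On the scale of all 31 samples, 6 groups from parental GC cells (22.5 CPM) to GR KO GC tumors (9.74 CPM) overlapped from each to the next, and the gap came before GR KO cells (0.151 and 0.133 CPM).

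*Ptges2*, a prostaglandin E synthase expressed in most cells, was not called by edgeR in any comparison. Parental tumors had 27.3, 18.5, 27.0, 22.7 and 27.6 CPM in control and 20.3, 31.7, 16.4, 31.1 and 21.9 CPM with GC, overlapping. Control tumors of GR KO fell into high and low values, 19.6, 48.4, 44.2, 21.7 and 45.7 CPM, and GR KO GC tumors had 18.5, 28.1, 14.7, 34.4 and 21.7 CPM. The log2 fold change with GC was -0.02 in parental tumors (edgeR adjusted p = 0.984) and -0.61 in GR KO tumors (SE 0.28, edgeR adjusted p = 0.175), or -0.27 (edgeR adjusted p = 0.722) with detected genes as a covariate. *Ptges2* ran against the library's TMM factor over the 20 tumors (r = -0.66, rho = -0.72, n = 20) and against detected genes (r = -0.60, rho = -0.64). Each level is itself divided by the TMM factor, which by arithmetic pulls a correlation with that factor downward. The size of that pull was not tested. Cells had 33.3 ± 6.10 (parental DMSO), 23.0 ± 4.04 (GR KO DMSO), 28.0 ± 6.18 (GR KO GC, each SD, n = 3) and 28.2 ± 0.123 CPM (parental GC, SD, n = 2). All 3 GR KO DMSO values were below all 3 parental ones, but the log2 fold change of -0.53 (SE 0.20) was not called (edgeR adjusted p = 0.133). Between GR KO control tumors and GR KO DMSO cells it was 0.60 (SE 0.29, edgeR adjusted p = 0.0751), which DESeq2 called (0.69, adjusted p = 0.0420). There edgeR called it with at least 10 counts in every sample (0.70, adjusted p = 0.0402) and without control tumor replicate 1 (0.76, adjusted p = 0.0215) or 4 (0.71, adjusted p = 0.0418). In the parental line all 5 control tumors were below all 3 DMSO cultures, at 24.3 against 33.9 CPM on the scale of all 31 samples, and the log2 fold change of -0.48 (SE 0.28) was not called by edgeR (adjusted p = 0.156) or DESeq2 (adjusted p = 0.181). All 8 groups overlapped from each to the next in order of their means.

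*Hpgd*, which inactivates prostaglandin E2, was seen in tumors and had 0 counts in all 11 cultures. Parental control tumors had 7.26, 1.06, 1.18, 2.65 and 0.261 CPM, parental GC tumors 2.86, 8.79, 0.972, 1.53 and 3.99 CPM. GR KO control tumors were the lowest, with 1.25, 0.717, 0.273, 1.24 and 0 CPM, and GR KO GC tumors had 2.23, 2.43, 3.87, 1.17 and 1.41 CPM. In GR KO tumors 4 of 5 GC values exceeded every control value. The log2 fold change there was 1.66 (SE 0.84, edgeR adjusted p = 0.225), with an exact permutation p = 0.0238 for *Hpgd* alone. Against parental control tumors, GR KO control tumors were at -1.81 (SE 0.84, edgeR adjusted p = 0.229), or -0.88 (edgeR adjusted p = 0.576) without parental replicate 1. Control tumors were at least 13.0-fold (parental, at least 6.80-fold without replicate 1) and at least 4.45-fold (GR KO) higher than DMSO cells, against a floor of 3 counts per library, and edgeR called both (adjusted p = 0.000416 and 0.00218). Over the 20 tumors *Hpgd* ran against the summed neutrophil markers (r = -0.70, rho = -0.74, n = 20). *Mmp9* was the most abundant gene of that sum (60.7 to 836 CPM), and a link of *Hpgd* to neutrophils was not tested.

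Among the receptors, *Ptger4* encodes the cAMP-raising EP4. Parental control tumors had 21.5, 29.5, 19.8, 27.0 and 12.7 CPM and parental GC tumors 25.1, 18.4, 25.3, 18.5 and 30.3 CPM. Control tumors of GR KO had 30.8, 16.1, 12.5, 33.8 and 14.87 CPM, and GR KO GC tumors 14.4, 17.0, 13.3, 7.36 and 10.4 CPM. All 5 GR KO GC tumors were below all 5 parental GC tumors, while the GR KO groups overlapped. Between the lines with GC, *Ptger4* was -0.91 (SE 0.30), not called by edgeR (adjusted p = 0.204), with an exact permutation p = 0.00794. The log2 fold change with GC was 0.09 in parental tumors (edgeR adjusted p = 0.929) and -0.79 in GR KO tumors (SE 0.30, edgeR adjusted p = 0.106), and their difference was 0.88 (edgeR adjusted p = 0.243). Group means were 22.1 ± 6.56, 23.5 ± 5.09, 21.6 ± 9.89 and 12.5 ± 3.72 CPM (SD, n = 5 each) in that order.

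Cells again separated by line. *Ptger4* was 14.0, 10.04 and 14.2 CPM in parental DMSO cells, 10.0 and 7.73 CPM in parental GC cells, 3.2202, 2.53 and 1.67 CPM in GR KO DMSO cells and 2.74, 3.07 and 2.71 CPM in GR KO GC cells. Every GR KO culture was below every parental one. *Ptger4* fell by 2.36 on the log2 scale under DMSO (SE 0.28, edgeR adjusted p = 0.000387), and stayed called without any 1 of the 6 libraries (-2.59 to -2.14). Parental GC values lay just below the DMSO values (-0.52, SE 0.30, edgeR adjusted p = 0.672, or -0.35 without GC replicate 2). GR KO control tumors held more *Ptger4* than GR KO cells, by 3.09 (SE 0.39, edgeR adjusted p = 6.44e-08). In the parental line the same comparison gave 0.76 (SE 0.34, edgeR adjusted p = 0.0651), called by DESeq2 (adjusted p = 0.0452) and by edgeR without parental control tumor replicate 5 (0.86, adjusted p = 0.0327). On the joint scale tumors and parental cells ran from 23.4 to 9.10 CPM with overlap between neighbours, then came GR KO cells at 2.85 and 2.55 CPM.

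The other EP receptors were sparse. *Ptger2*, encoding the cAMP-raising EP2, had 0, 0.240, 0, 0.974 and 0.186 CPM in parental control tumors, 0.817, 0.366, 0.221, 0 and 0.171 CPM with GC, 0, 0, 0, 0.734 and 0 CPM in GR KO control tumors and 2.10, 0.108, 1.35, 0.794 and 2.18 CPM with GC. In GR KO tumors 4 of 5 GC values thus exceeded all control values, and 4 control libraries were at 0. The fitted log2 fold change was 3.00 (SE 1.46, edgeR adjusted p = 0.206), with an exact permutation p = 0.0159. Over the 20 tumors *Ptger2* ran with the TMM factor (r = 0.58, rho = 0.68, n = 20) and with detected genes (r = 0.55, rho = 0.63), whose part in that result was not tested. Given detected genes as a covariate the value was 2.92 (edgeR adjusted p = 0.306). Without GR KO control replicate 4, the only control library with counts, edgeR called it (7.67, adjusted p = 0.0177), a comparison then made against a group at 0. Parental tumors gave 0.17 (edgeR adjusted p = 0.975), and the difference between the GC effects was -2.83 (SE 1.97, edgeR adjusted p = 0.427), -7.51 without GR KO control replicate 4 (edgeR adjusted p = 0.0506) and -1.52 without parental control replicate 4. All 11 cultures were at 0. Against them edgeR called neither parental (adjusted p = 0.0671) nor GR KO control tumors (adjusted p = 0.0814), and no fold is given since both rested on replicate 4.

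*Ptger1*, encoding the calcium-raising EP1, averaged 3.33 ± 1.76 (parental control), 2.94 ± 1.31 (parental GC), 3.32 ± 4.11 (GR KO control) and 1.70 ± 0.922 CPM (GR KO GC) in tumors (SD, n = 5 each). The widest spread was in GR KO control tumors, at 10.1, 4.18, 0.820, 1.51 and 0 CPM. In cells its values ran from 0 to 2.16 CPM. It was higher in GR KO control tumors than in GR KO DMSO cells (log2 fold change 2.76, SE 1.12, edgeR adjusted p = 0.0364). That call was lost without GR KO DMSO replicate 1 (edgeR adjusted p = 0.0975), 2 (0.127) or 3 (0.0524) and without GR KO control tumor replicate 1 (1.75, edgeR adjusted p = 0.153) or 2 (0.0508), and in a fit of the compared groups alone (0.125).

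*Ptger3*, encoding the cAMP-lowering EP3, ran from 0 to 5.53 CPM in tumors, with group means of 1.79 ± 1.03, 2.16 ± 0.607, 2.71 ± 2.41 and 1.79 ± 0.935 CPM (SD, n = 5 each; parental control, parental GC, GR KO control, GR KO GC). All 11 cultures held 0 counts. Control tumors were at least 9.39-fold (parental) and at least 17.1-fold (GR KO) higher than DMSO cells, and edgeR called both (adjusted p = 0.000265 and 7.09e-05). GC effects were 0.27 in parental (edgeR adjusted p = 0.913) and -0.59 in GR KO tumors (edgeR adjusted p = 0.660), where the value was -0.91, -0.26 and -0.16 without control replicates 1, 2 and 5 and -0.38 without GC replicate 3. Host markers followed the same contrast, since the summed macrophage genes reached 3541 to 9249.8 CPM in tumors and 2.59 to 12.2 CPM in cultures. So *Hpgd*, *Ptger2* and *Ptger3* were seen only in samples that also held host cells, and which cells carried them was not tested.

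**Figure D2:**
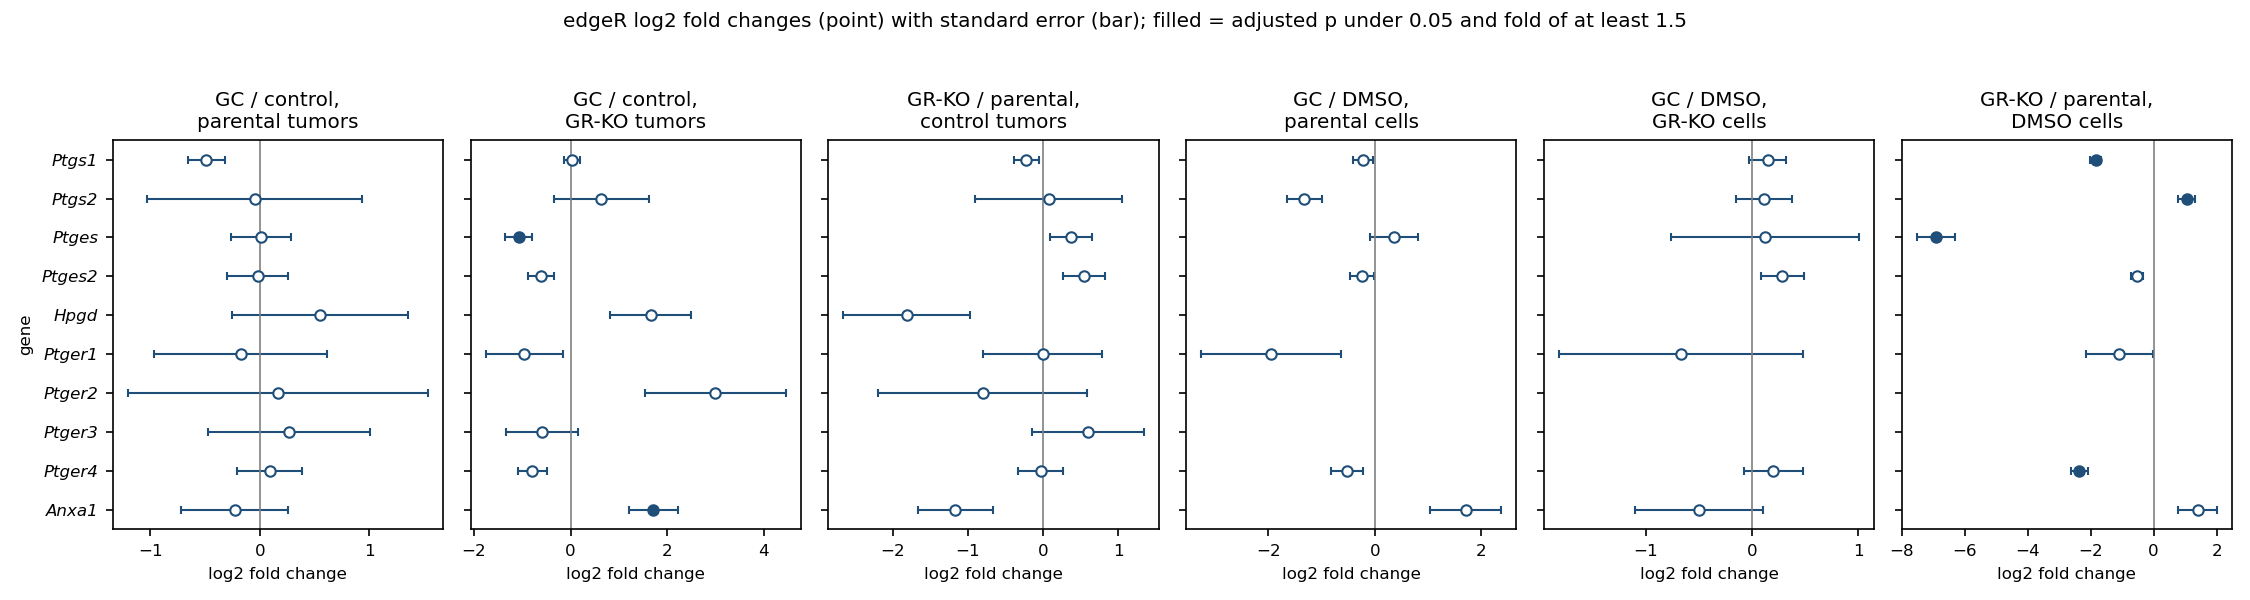
edgeR log2 fold changes (points, horizontal axis) with standard errors (bars) for each gene in 6 comparisons; filled points passed an adjusted p under 0.05 and a fold of at least 1.5, and a missing point means too few counts to be tested. Filled points are *Ptges* (-1.07) and *Anxa1* (1.72) for GC in GR KO tumors and *Ptges* (-6.92), *Ptger4* (-2.36), *Ptgs1* (-1.85) and *Ptgs2* (1.05) for GR KO against parental DMSO cells; the horizontal scales differ between panels.

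*Anxa1* was the only member called up with GC, and it was called in GR KO tumors. Control tumors of GR KO had 10.7, 9.20, 18.6, 58.2 and 23.0 CPM and GR KO GC tumors 88.3, 30.7, 102, 29.1 and 145 CPM. Replicate 4 of the control group stood far above its fellows and above 2 of the GC tumors, and the remaining 4 control values were below all GC values. *Anxa1* rose by 1.72 on the log2 scale (SE 0.50, edgeR adjusted p = 0.0423), from 23.9 ± 19.96 to 78.9 ± 49.4 CPM (SD, n = 5 each), with an exact permutation p = 0.0397. Parental tumors had 25.9, 45.3, 77.3, 57.1 and 64.0 CPM in control and 63.5, 31.9, 76.5, 13.9 and 44.3 CPM with GC. These overlapped, at 53.9 ± 19.5 and 46.0 ± 24.8 CPM (SD, n = 5 each), with a log2 fold change of -0.23 (SE 0.49, edgeR adjusted p = 0.883). The difference between the GC effects was -1.95 (SE 0.70, edgeR adjusted p = 0.141). Between the lines *Anxa1* was -1.17 in control tumors (SE 0.50, edgeR adjusted p = 0.193, exact permutation p = 0.0397) and 0.78 in GC tumors (SE 0.49, edgeR adjusted p = 0.565), or 0.44 without GR KO GC replicate 5.

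Calls on *Anxa1* changed without single libraries. Without GR KO control replicate 4 the rise was 2.37 (edgeR adjusted p = 0.00455), the difference between the GC effects was called (-2.59, edgeR adjusted p = 0.0265), and so was GR KO against parental control tumors (-1.81, edgeR adjusted p = 0.0216). The rise lost its call without GR KO control replicate 1 (edgeR adjusted p = 0.113), 2 (0.107), 3 (0.0800) or 5 (0.0741) and without GR KO GC replicate 1 (0.0849), 3 (0.109) or 5 (1.38, 0.142). A fit of both GR KO tumor groups alone gave 1.70 (edgeR adjusted p = 0.0810), and with the replicate number as a block edgeR did not call the rise either.

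Library make-up moved with *Anxa1*. Over the 20 tumors its level correlated with the TMM factor (r = 0.88, rho = 0.85, n = 20), with detected genes (r = 0.78, rho = 0.66) and with the share of the 10 most abundant genes (r = -0.76, rho = -0.89), and with the mitochondrial share (r = 0.65, rho = 0.56). With detected genes as a covariate the GC effect on *Anxa1* in GR KO tumors was 0.75 (edgeR adjusted p = 0.451), the difference between the GC effects -1.29 (edgeR adjusted p = 0.293) and the difference between lines in control tumors -0.34 (edgeR adjusted p = 0.908). The 4 GR KO control tumors with low *Anxa1* were the 4 with the fewest detected genes of their group. Of the other members, *Ptges2* (r = -0.66, rho = -0.72) and *Ptger2* (r = 0.58, rho = 0.68) were more tied to the TMM factor than *Ptges* (r = -0.23, rho = -0.08) and *Ptgs1* (r = 0.21, rho = 0.15). Levels are divided by that factor, so these correlations with it are a description only.

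Fibroblast markers moved with *Anxa1* as well. Over the 20 tumors *Anxa1* correlated with the sum of the 7 fibroblast genes (r = 0.85, rho = 0.81, n = 20). That sum was 3777, 4072, 4817, 7569 (replicate 4) and 5224 CPM in GR KO control tumors and 11459.7, 8457, 12275, 7594 and 12687 CPM in GR KO GC tumors. It ran from 7011 to 8413 CPM in parental control and from 7823 to 11953.5 CPM in parental GC tumors. *Col3a1* was the most abundant (1103 to 4507 CPM) and none was at 0. These genes were read in cultures too, where *Col3a1* ran from 61.4 to 229 CPM and none was at 0 in every culture. Of 6 tested there, edgeR called 4 lower in GR KO than in parental DMSO cells, against 8.22% of all genes. Among GR KO tumors 4 of 7 rose with GC by edgeR (6.42% of all genes were called), *Col1a2* by 1.83 (SE 0.30, edgeR adjusted p = 0.00191), *Pdgfra* by 1.17 (SE 0.32, edgeR adjusted p = 0.0320), *Col3a1* by 1.03 (SE 0.22, edgeR adjusted p = 0.00798) and *Col1a1* by 0.64 (SE 0.17, edgeR adjusted p = 0.0258), and the list's median log2 fold change was 1.03 against 0.05 over all genes. In parental tumors, where 0.779% of all genes were called, edgeR called 0 of 7 (3 at an unadjusted p under 0.05, 0 by DESeq2) and the median was 0.27. Of these 4 rises, *Col1a2* and *Col3a1* kept their call without each library in turn. *Col1a1* lost it without GR KO control replicate 1, 2 or 3 or GC replicate 1, 3 or 5 (edgeR adjusted p = 0.0510 to 0.0864), and *Pdgfra* without control replicate 1, 2, 3 or 5 or GC replicate 1, 3 or 5 (edgeR adjusted p = 0.0616 to 0.121). With detected genes as a covariate only *Col1a2* stayed called (1.26, edgeR adjusted p = 0.0126), while *Col3a1* was 0.72 (edgeR adjusted p = 0.0631), *Col1a1* 0.49 (edgeR adjusted p = 0.141) and *Pdgfra* 0.66 (edgeR adjusted p = 0.349). The part of fibroblasts in the rise of *Anxa1* was not tested.

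**Figure D3:**
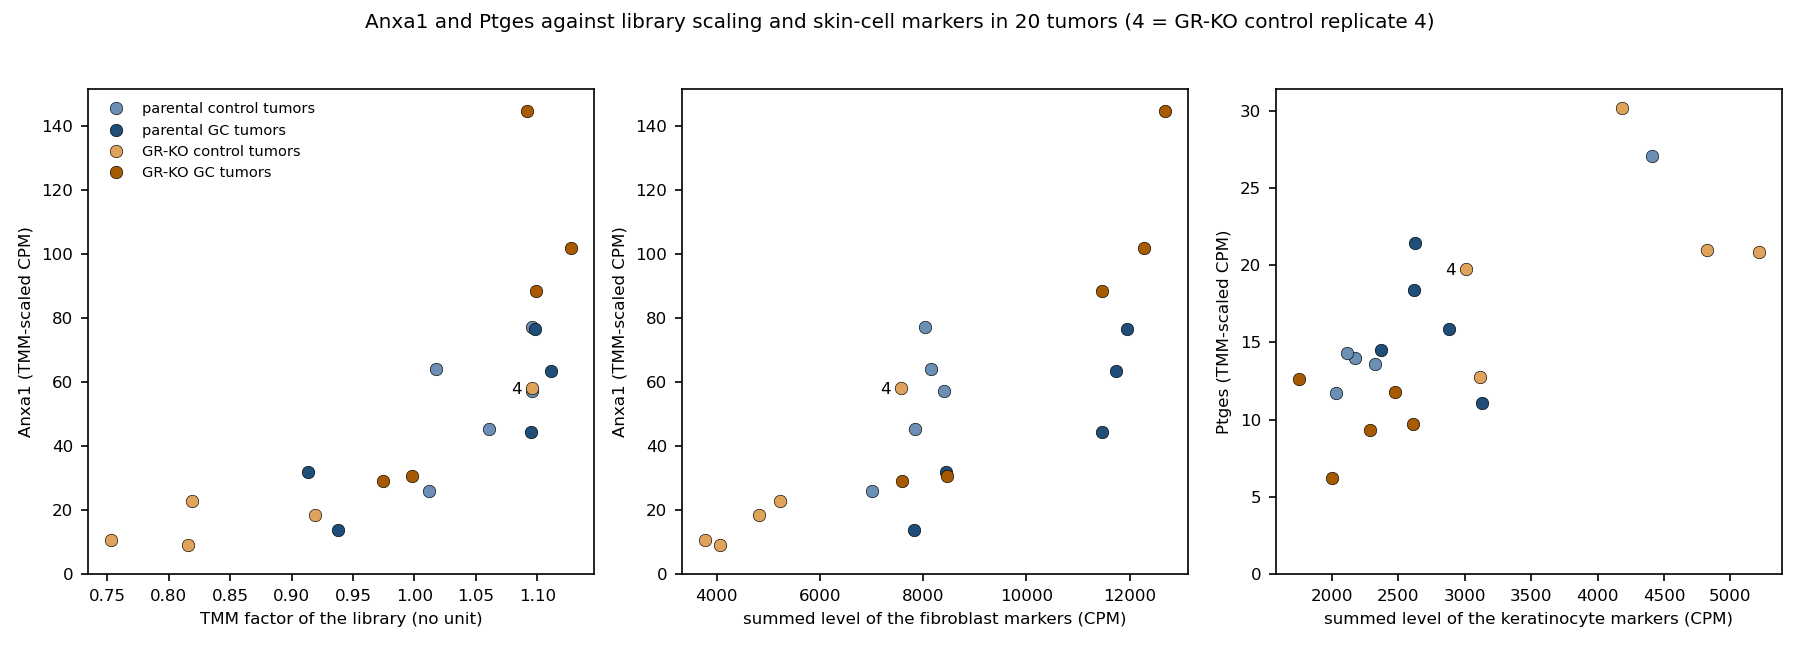
*Anxa1* (left, middle) and *Ptges* (right) in TMM-scaled CPM on the vertical axes, against the TMM factor, the summed fibroblast markers and the summed keratinocyte markers (CPM) on the horizontal axes; each point is 1 of 20 tumors, colored by group. GR KO control tumors other than replicate 4 (marked) hold TMM factors of 0.753 to 0.919 and *Anxa1* of 9.20 to 23.0 CPM.

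In cells *Anxa1* varied widely between replicates. Parental DMSO cells had 72.0, 24.8 and 77.2 CPM and parental GC cells 266 and 114 CPM, without overlap. GR KO cells had 115, 248 and 96.3 CPM with DMSO and 206, 78.6 and 39.9 CPM with GC, overlapping. The log2 fold change with GC was 1.71 in parental cells (SE 0.67, edgeR adjusted p = 0.464) and -0.50 in GR KO cells (SE 0.60, edgeR adjusted p = 0.976), and the difference was 2.21 (SE 0.90, edgeR adjusted p = 0.563). The parental value was 0.98 without GC replicate 1. The GR KO value was 0.03 without DMSO replicate 2 and -1.37, -0.32 and -0.12 without GC replicates 1, 2 and 3. GR KO DMSO cells all exceeded parental DMSO cells (1.40, SE 0.61, edgeR adjusted p = 0.189, or 0.87 without GR KO replicate 2). Group means were 58.0 ± 28.9, 153 ± 82.5 and 108 ± 86.7 CPM (SD, n = 3; parental DMSO, GR KO DMSO, GR KO GC) and 190.1 ± 107 CPM (SD, n = 2; parental GC). GR KO control tumors held less *Anxa1* than GR KO DMSO cells (-2.68, SE 0.60, edgeR adjusted p = 0.000350), and the parental line gave -0.15 (edgeR adjusted p = 0.857). In order of means over 31 samples, from parental GC cells (195.1 CPM) to GR KO control tumors (24.4 CPM), each group overlapped the next.

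Members varied together only in part over the 20 tumors. The strongest correlation between members was that of *Anxa1* with *Ptger2* (r = 0.71, rho = 0.73, n = 20). *Anxa1* ran against *Ptges2* (r = -0.66, rho = -0.66, n = 20) and against the sum of the other annexins (r = -0.83, rho = -0.80) and of macrophage markers (r = -0.74, rho = -0.74). *Ptges2* followed the sum of the other annexins (r = 0.86, rho = 0.83). In tumors *Anxa2* was the most abundant of those annexins (998 to 3303 CPM) and *C1qa* of the macrophage genes (1607 to 6706 CPM). Abundant genes weigh most in such sums, which need not follow every gene of a list. These are descriptions over 20 tumors in 4 groups that share library make-up.

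Genes most like each member over the 20 tumors were ranked by Pearson's r of log2(CPM + 1) among all genes tested, for the 9 members averaging at least 1 CPM. For *Ptgs1* these were *Tmem200a* (r = 0.84), *Rap2b* (0.79) and *Ankrd50* (0.78), and for *Ptgs2* *Mdh1* (0.80), *Wdhd1* (0.75) and *Gm7008* (0.71). *Ptges* was followed by *Gcat* (0.82), *Sh3bgrl3* (0.81) and *Rab11fip1* (0.80), and *Ptges2* by *Unc119* (0.93), *Fbf1* (0.88) and *Gapvd1* (0.87). Closest to *Hpgd* were *Flg* (0.84), *Hrnr* (0.83), both genes of the cornified layer of skin, and *Mcph1* (0.82), while *Hpgd* ran against the summed keratinocyte markers (r = -0.40, rho = -0.35, n = 20). The receptors gave *5430421N21Rik* (0.78), *Krt32* (0.77) and *Myh14* (0.76) for *Ptger1*, *Fam219b* (0.80), *Marveld2* (0.79) and *Tenm2* (0.79) for *Ptger3*, and *Clca2* (0.86), the muscle myosin *Myh4* (0.86) and *F730043M19Rik* (0.83) for *Ptger4*. *Anxa1* had the closest followers, *Igfbp7* (0.97), *Rpl4* (0.96) and *Cd9* (0.96). Spearman's rho named 16 of these 27 genes too.

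Upstream of the cyclooxygenases, phospholipases release arachidonic acid. Over all 8 pathway lists together, edgeR called 1 of 72 tested genes with GC in parental tumors (9 at an unadjusted p under 0.05, 5 by DESeq2) and 7 of 72 in GR KO tumors (25 unadjusted, 12 by DESeq2), against 0.779% and 6.42% of all genes. In parental tumors the call was *Ptgfr*, the prostaglandin F receptor and 1 of 4 tested receptors for other prostanoids, which rose by 1.46 (SE 0.33, edgeR adjusted p = 0.0340), from 5.20 ± 1.20 to 14.3 ± 5.29 CPM (SD, n = 5 each). It lost its call without parental control replicate 1, 3, 4 or 5 or GC replicate 2, 3 or 4 (edgeR adjusted p = 0.0594 to 0.128).

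Called pathway genes in GR KO tumors were lower with GC except for *Areg*, and of all 1022 genes called there 591 were lower. *Ptgis*, prostacyclin synthase, fell by 2.28 (SE 0.37, edgeR adjusted p = 0.00153), from 33.1 ± 22.0 to 6.80 ± 2.05 CPM (SD, n = 5 each), and *Akr1b3*, an aldo-keto reductase, by 2.51 (SE 0.74, edgeR adjusted p = 0.0431), which makes 2 of 11 tested prostanoid synthases. *Pde4b*, a phosphodiesterase that breaks down cAMP, fell by 1.16 (SE 0.24, edgeR adjusted p = 0.00798), from 124 ± 11.2 to 55.5 ± 12.9 CPM (SD, n = 5 each), while the growth factor *Areg*, the other cAMP-responsive gene called, rose by 2.07 (SE 0.58, edgeR adjusted p = 0.0334). *Ptgis* and *Pde4b* were the members of these lists whose call was kept without each library in turn. Single calls were *Faah*, a lipid amide hydrolase, which fell by 1.34 (SE 0.38, edgeR adjusted p = 0.0373), the leukotriene B4 receptor *Ltb4r1*, which fell by 0.99 (SE 0.28, edgeR adjusted p = 0.0357), and *Anxa8*, which fell by 0.74 (SE 0.20, edgeR adjusted p = 0.0264). So *Anxa8*, the 1 of 8 tested other annexins that was called, moved opposite to *Anxa1*. Of these 8 annexins 6 had positive and 2 negative values, with a median of 0.16, so most had the sign of *Anxa1*.

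Those 3 calls and those of *Akr1b3* and *Areg* lay close to the threshold. With edgeR, *Faah* lost its call without GR KO control replicate 1 or 4 or any GC replicate (adjusted p = 0.0514 to 0.109), and *Akr1b3* without control replicate 1, 2 or 5 or GC replicate 1, 2, 3 or 5 (adjusted p = 0.0622 to 0.0950). *Ltb4r1* lost it by edgeR without control replicate 1, 2 or 5 or GC replicate 1, 2, 3 or 5 (adjusted p = 0.0616 to 0.0999), *Anxa8* without control replicate 2 or 3 or GC replicate 3 or 5 (adjusted p = 0.0542 to 0.0823), and *Areg* without control replicate 1, 2 or 3 or GC replicate 2, 3 or 5 (adjusted p = 0.0563 to 0.107). Without each library in turn the log2 fold changes stayed at -1.50 to -1.09, -2.74 to -2.17, -1.16 to -0.86, -0.83 to -0.63 and 1.77 to 2.43 in that order. With detected genes as a covariate these 5 were not called by edgeR either (-1.55 with adjusted p = 0.0704 for *Faah*, -2.46 with 0.232 for *Akr1b3*, -0.72 with 0.241 for *Ltb4r1*, -0.61 with 0.165 for *Anxa8* and 1.78 with 0.173 for *Areg*), and *Ptgis* and *Pde4b* were. In the difference between the GC effects, edgeR called 0 of these 72 genes in tumors (23 at an unadjusted p under 0.05), against 0.195% of all genes, and DESeq2 called 8. None of the effects on pathway genes was thus shown by edgeR to differ between the lines.

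As lists, the pathway genes are described by medians, which were not tested. Median log2 fold changes with GC in parental tumors were -0.09 for phospholipases and arachidonate release, 0.04 for other prostanoid synthases, -0.23 for other prostanoid receptors, -0.11 for prostaglandin transport and breakdown and -0.46 for the leukotriene and lipoxin pathway. They were -0.02 for other annexins, -0.09 for formyl peptide receptors and S100 partners and -0.23 for cAMP-responsive genes, against 0.00 for all genes. In GR KO tumors the same medians were -0.29, -0.12, 0.10, -0.28, -0.22, 0.16, 0.55 and 0.50, against 0.05. The receptor *Fpr2*, to which annexin A1 binds, was at 36.9 ± 16.3 (parental control), 36.2 ± 16.4 (parental GC), 59.8 ± 16.9 (GR KO control) and 31.6 ± 18.5 CPM (GR KO GC) in tumors (SD, n = 5 each), and 0 in every culture but 1, which had 0.0538 CPM.

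In cells, GC changed 1 of 46 tested pathway genes in the parental line by edgeR (12 at an unadjusted p under 0.05, 2 by DESeq2), against 0.878% of all genes. *Anxa3* rose by 0.67 (SE 0.12, edgeR adjusted p = 0.0244), from 219 ± 13.2 (SD, n = 3) to 349 ± 12.5 CPM (SD, n = 2), and lost its call without DMSO replicate 1 or 3 or either GC replicate (edgeR adjusted p = 0.104 to 0.254). In GR KO cells edgeR called 0 of 46 (0 at an unadjusted p under 0.05, 0 by DESeq2; 0% of all genes), and in the difference 0 of 46 (7 unadjusted, 0 by DESeq2; 0.295% of all genes). Parental medians were -0.38 for phospholipases, 0.02 for synthases, -0.48 for other receptors, 0.20 for transport and breakdown, 0.09 for leukotriene genes, 0.06 for other annexins, 0.67 for formyl peptide receptors and partners and -0.38 for cAMP-responsive genes, with 0.00 for all genes. GR KO medians ran from -0.27 (leukotriene genes) to 0.31 (other receptors), with 0.02 for all genes.

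Markers of host cells give the tissue in which the members were read. In parental tumors, where 0.779% of all genes were called, GC lowered 2 of 9 tested neutrophil genes, *S100a9* at -5.03 (SE 0.98, edgeR adjusted p = 0.0109) and *S100a8* at -3.96 (SE 0.94, edgeR adjusted p = 0.0437), and raised 1 of 8 keratinocyte genes, *Lor* by 1.19 (SE 0.24, edgeR adjusted p = 0.0149). Both neutrophil calls turned on parental control replicate 5, without which *S100a9* was -2.98 (edgeR adjusted p = 0.0654) and *S100a8* -2.05 (edgeR adjusted p = 0.316). *S100a8* was also lost by edgeR without control replicate 3 (adjusted p = 0.0785) or GC replicate 1, 2, 3 or 4 (0.0799 to 0.134), and *Lor* without control replicate 3 (0.0712) or 5 (0.0615) or GC replicate 5 (0.0500). Within GR KO tumors, where 6.42% of all genes were called, 2 of 6 T cell genes fell, *Lck* by 1.56 (SE 0.36, edgeR adjusted p = 0.0149) and *Cd3d* by 1.26 (SE 0.33, edgeR adjusted p = 0.0264). There also *Itga2b* (platelet, 1 of 4) fell by 1.57 (SE 0.40, edgeR adjusted p = 0.0216), *Kdr* (endothelial, 1 of 7) fell by 1.32 (SE 0.26, edgeR adjusted p = 0.00567), and *Mrc1* (macrophage, 1 of 10) rose by 1.20 (SE 0.32, edgeR adjusted p = 0.0267). *Lck* and *Kdr* kept their call without each library in turn. By edgeR the others lost it, *Cd3d* without control replicate 1 or 2 or GC replicate 1, 3 or 5 (adjusted p = 0.0578 to 0.0813), *Itga2b* without control replicate 5 or GC replicate 1, 3 or 5 (0.0512 to 0.0746) and *Mrc1* without control replicate 1, 2 or 3 or GC replicate 1, 3 or 5 (0.0526 to 0.0876). Given detected genes as a covariate, *Kdr* alone of these 5 stayed called, and edgeR gave adjusted p = 0.0559 for *Lck* (-1.51), 0.114 for *Cd3d* (-1.11), 0.0708 for *Itga2b* (-1.53) and 0.325 for *Mrc1* (0.56).

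As lists, the neutrophil genes had a median of -1.27 with GC in parental tumors, the macrophage genes -0.22, mast cell 0.70, T cell -0.24, platelet 0.07, keratinocyte -0.01, endothelial -0.81, muscle 0.49 and melanocyte -1.75. In GR KO tumors the same medians were -0.48, 0.00, -0.22, -0.83, -0.79, -0.26, -0.60, -0.62 and 0.30. In the difference between the GC effects edgeR called 0 of 68 marker genes in tumors (20 at an unadjusted p under 0.05, 5 by DESeq2), against 0.195% of all genes. In cultures the summed neutrophil markers were at most 2.62 CPM, mast cell markers at most 0.588 CPM with 7 of 8 genes at 0, and T cell markers at most 0.171 CPM with 6 of 7 at 0.

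The members lie apart in the genome except for the 3 synthesis genes on chromosome 2. In GRCm38 coordinates from GENCODE, *Ptgs1* (ENSMUSG00000047250) is at chr2:36230426-36252272 (+), *Ptgs2* (ENSMUSG00000032487) at chr1:150100031-150108227 (+), *Ptges* at chr2:30889471-30929863 (-) and *Ptges2* at chr2:32395896-32405772 (+). *Hpgd* is at chr8:56294585-56321043 (+). The receptors are *Ptger1* at chr8:83666678-83672753 (+), *Ptger2* at chr14:44988195-45003820 (+), *Ptger3* at chr3:157566892-157645888 (+) and *Ptger4* at chr15:5206661-5244187 (-). *Anxa1* is at chr19:20373428-20390944 (-). *Ptger4* shares 11676 bases with *Ttc33* on the other strand, so that its reads are uncertain where the counting did not use strand, whereas the transcripts that hold *Ptger2* and *Anxa1* on their other strands had 4 counts each over all 31 samples.

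Promoters of 3 of the members that differed between lines or with GC in the data above are printed, to show what these sequences hold. RefSeq (GRCm38.p6) gave the sequence from 250 bases before to 50 after the start of 9 of the 10 members, all but *Ptger1*, and of 32851 promoters in all. Both strands were searched for 8 motifs. The glucocorticoid receptor's short core AGAACA was in 19.0% of all promoters. The AP-1 motif TGANTCA was in 7.81% of them. The cAMP response element TGACGTCA was in 1.79%, and its shorter form, written TGACG, in 20.8%. The E-box, spelled CACGTG, was in 7.15% of promoters. The C/EBP motif TTNNGNAA was in 40.7% and the NF-kB-like motif GGNNNTTCC in 18.5%. The TATA box, searched as TATAAA, was in 13.6%. The 250 bases before the start are given 5′ to 3′ on the gene's strand, with matches in capitals. *Ptges* (chr2:30903298-30903547, minus strand, a RefSeq start within the GENCODE gene) holds TTNNGNAA, read on the strand opposite to the one printed, at -198 to -191, which shares 1 base with AGAACA at -191 to -186. *Ptgs2* (chr1:150099781-150100030, plus strand) holds TTNNGNAA at -69 to -62 and at -25 to -18. *Anxa1* (chr19:20390672-20390921, minus strand) holds GGNNNTTCC, also read on the opposite strand, at -196 to -188, TTNNGNAA at -143 to -136 and TATAAA at -32 to -27.
Ptges: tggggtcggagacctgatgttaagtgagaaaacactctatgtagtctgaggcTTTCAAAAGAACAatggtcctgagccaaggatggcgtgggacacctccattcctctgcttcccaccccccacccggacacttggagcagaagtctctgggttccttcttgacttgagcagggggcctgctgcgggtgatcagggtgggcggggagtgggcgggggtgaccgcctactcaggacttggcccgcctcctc
Ptgs2: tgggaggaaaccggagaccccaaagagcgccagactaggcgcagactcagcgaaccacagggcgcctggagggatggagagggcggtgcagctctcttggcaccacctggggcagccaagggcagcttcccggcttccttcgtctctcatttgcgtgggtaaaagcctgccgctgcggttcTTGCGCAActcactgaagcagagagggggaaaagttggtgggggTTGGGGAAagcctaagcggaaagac
Anxa1: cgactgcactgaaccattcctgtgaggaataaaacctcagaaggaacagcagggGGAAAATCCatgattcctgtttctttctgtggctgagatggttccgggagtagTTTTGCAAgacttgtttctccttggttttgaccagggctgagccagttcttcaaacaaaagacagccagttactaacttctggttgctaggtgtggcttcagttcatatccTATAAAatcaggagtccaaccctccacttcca

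In the 50 bases after the start *Ptgs2* also has TGACG on the minus strand at 14 to 18, which overlaps CACGTG at 17 to 22. Of the other members, AGAACA occurs in *Ptgs1* (-204 to -199, minus strand) and *Ptger2* (-52 to -47 and 11 to 16), CACGTG in *Ptges2* (-77 to -72) and TATAAA in *Hpgd* (5 to 10). TTNNGNAA occurs also in *Ptges2* (-48 to -41), *Hpgd* (-192 to -185) and *Ptger2* (-172 to -165, and on the minus strand -156 to -149 and 40 to 47). The windows of *Ptger3* and *Ptger4* hold none of these letters. A match describes the letters and not a bound site.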

How the data were processed

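RNA from 20 tumors and 11 cultures was made into 3′ mRNA-Seq libraries and sequenced on an Illumina NovaSeq. The authors trimmed reads with Trim Galore 0.6.5, aligned them with STAR 2.6.1d to GRCm38 and deposited raw counts of reads per gene (featureCounts, Ensembl release 75). No strand setting is named for the counting, and the paper gives defaults for its modules and packages where nothing else is specified. A count may therefore hold reads of the other strand. A result on 1 withheld item is not reported here. From these counts, edgeR 4.0.16 in R 4.3.3 fitted quasi-likelihood models to tumors, to cells and to all 31 samples apart, for genes with at least 0.5 CPM in at least 3 samples, with TMM scaling. A gene was called at an adjusted p under 0.05 and a fold of at least 1.5, and SE was taken from the fold change and F. Exact two-sided permutation tests used log2(CPM + 1). Total counts were 14441166 to 26386770 per library, so that 3 counts gave 0.112 to 0.220 CPM. Genes named are the 10 members, *Nr3c1*, *Tsc22d3*, up to 6 genes with the smallest adjusted p per list and comparison among those called in a GC effect or a difference between GC effects, and the 3 genes most like each member. Members and the 18 lists were chosen with earlier results of these data known. Alternatives were DESeq2 1.42.0, its size factors in edgeR, other filters, folds and pseudocounts, the replicate number as a block, the compared groups alone and each library left out in turn. Unscaled CPM and detected genes as a covariate were chosen after seeing the data. The fits were also tested on simulated data.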

Additional observations from a re-analysis of the deposited data

Results flagged for a closer look

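In 4 of 40 member and tumor-group combinations, 1 sample lay far from the other 4 of its group, measured as the gap to its nearest neighbour over the group's range. Chance alone is taken to mark about 1 in 20 groups in this way, a rate that was not checked here. It need not hold for *Ptger2*, where 2 of 5 parental and 4 of 5 GR KO control samples were at 0. *Ptges* was 27.1 CPM in parental control replicate 5, the highest of its group. *Ptger2* was 0.974 CPM in parental control replicate 4 and 0.734 CPM in GR KO control replicate 4, each the highest of its group and both from few counts. *Anxa1* was 58.2 CPM in GR KO control replicate 4, the library whose make-up also differed from the rest of its group. The effect of GC on *Tsc22d3* differed between the lines *in vitro*, with a difference of 3.14 on the log2 scale by the edgeR test of that difference (adjusted p = 0.000332).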

How the results depend on the processing

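No alternative turned the direction of a member's called change. Of 52 results of members, *Nr3c1* and *Tsc22d3* the call was the same for 52 with no minimum fold and for 52 with DESeq2's size factors in edgeR, for 50 at a fold of 2 and for 51 without the filter. These 52 are a part of all results of these genes. Their members had an edgeR unadjusted p under 0.05, apart from *Ptger2* with GC in GR KO tumors. DESeq2 called 4 of 51 more, and a minimum of 10 counts in every sample 2 of 40 more. The replicate block lost 2 of 34, the covariate 3 of 20, and fits of the compared groups alone lost 3 and gained 1 of 44. With GC, members called in GR KO tumors were 1 with the replicate block (*Ptges*, while *Anxa1* at 1.69 had edgeR adjusted p = 0.0538), 0 with the covariate and 0 with groups alone, and in parental cells 1 by DESeq2. The other call lost with the replicate block was *Ptgs2* between lines in DMSO cells (1.04, edgeR adjusted p = 0.0610). With at least 10 counts in every sample, members called between control tumors and DMSO cells were 2 (parental) and 4 (GR KO), of fewer genes tested. All genes called by DESeq2 were 378 and 1779 for GC in parental and GR KO tumors, 817 for their difference, 1004 and 289 between lines in control and GC tumors, 251 for GC in parental cells and 128 for the difference in cells. With the covariate, in the order of those 5 tumor comparisons, they were 526, 217, 15, 51 and 362. A fold of 2 gave 583 for GC in GR KO tumors and 238 between lines in control tumors, and groups alone gave 381, 165 and, for GC in parental cells, 60. The replicate block gave 144 (difference in tumors), 160 (lines in GC tumors) and 63 (GC in parental cells). Without the filter the differences gave 49 (tumors) and 64 (cells). At least 10 counts in every sample gave 66 (difference in tumors), 661 (lines in DMSO cells), 4431 and 5081 (tumors against cells, parental and GR KO). Leaving out 1 library gave 60 to 179 (GC in parental tumors), 300 to 2404 (GR KO tumors), 0 to 1273 (difference), 61 to 1760 (lines in control tumors), 40 to 114 (lines in GC tumors), 30 to 80 (GC in parental cells), 0 to 0 (GR KO cells), 15 to 43 (difference in cells), 595 to 926 (lines in DMSO cells), 6437 to 7467 and 7681 to 9261 (tumors against cells). Members called then were 0 to 3 (GC in GR KO tumors), 0 to 1 (difference in tumors), 0 to 1 (lines in control tumors), 3 to 3 (lines in DMSO cells), 3 to 5 and 6 to 9 (tumors against cells) and 0 elsewhere. Exact permutation results under 0.05 were 18, and 19 with a pseudocount of 0.1 and 15 without TMM scaling. These p-values were not adjusted for the number of tests, and comparisons between groups of cells cannot go under 0.1. Of 80 member levels 1 moved beyond its SD without TMM scaling, *Ptges2* in parental GC cells (28.0 CPM). Samples with the same replicate number in different groups had a mean r of 0.0583 over 30 tumor pairs (-0.543 to 0.415) and 0.0198 over 15 culture pairs (-0.552 to 0.620). GR KO GC against parental GC tumors gave 5 positive r (0.0998 to 0.389). Not every pair passed 0.1, so that numbers were not taken as pairs. Mean *Ptger2* in GR KO control tumors and mean *Ptges* in GR KO cells lay under the floor of 3 counts per library. The cause of these shifts was not tested.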

Other observations

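Between the lines in DMSO cells edgeR called 7 of 46 tested pathway genes (20 at an unadjusted p under 0.05, 12 by DESeq2), against 8.22% of all genes. The genes in this paragraph and the next were named after their values were seen. In DMSO cells GR KO was lower in *Pla2g7*, a platelet-activating factor hydrolase, by -2.11 (SE 0.25, edgeR adjusted p = 0.000336), from 17.9 ± 1.18 to 4.15 ± 0.543 CPM, and higher in *Pla2g4a*, cytosolic phospholipase A2, by 1.14 (SE 0.22, edgeR adjusted p = 0.00713), from 22.4 ± 5.67 to 49.5 ± 0.935 CPM (SD, n = 3 each). *Cbr2*, a carbonyl reductase, was -1.94 (SE 0.34, edgeR adjusted p = 0.00471), and the exporter *Abcc4* was 0.82 (SE 0.21, edgeR adjusted p = 0.0361). *Pde4b* was -5.01 (SE 0.46, edgeR adjusted p = 6.24e-05), from 38.4 ± 9.46 to 1.19 ± 0.504 CPM (SD, n = 3 each). Of 6 tested leukotriene genes edgeR called 2, both lower, against 8.22% of all genes called, while signs were 3 positive and 3 negative. They were *Ltc4s* at -2.99 (SE 0.76, edgeR adjusted p = 0.0311) and *Alox5*, at 0 in all 3 GR KO libraries against 1.75 ± 0.614 CPM in parental cells (SD, n = 3). Of 6 tested fibroblast genes edgeR called 4 lower in GR KO cells, against 8.22% of all genes called, *Col1a1* by -4.30 (SE 0.45, edgeR adjusted p = 0.000179), *Col3a1* by -1.37 (SE 0.19, edgeR adjusted p = 0.000934), *Col6a3* by -4.42 (SE 0.63, edgeR adjusted p = 0.00126) and *Dcn*, at 0 in all 3 GR KO libraries. *Mitf* was -1.36 (SE 0.23, edgeR adjusted p = 0.00380). The calls of *Abcc4* and *Ltc4s* were each lost without 5 of the 6 libraries. *Abcc4* kept its call only without GR KO replicate 1 and otherwise had edgeR adjusted p = 0.0503 to 0.124. *Ltc4s* kept its call only without parental replicate 2 and otherwise had edgeR adjusted p = 0.0508 to 0.116. All other calls in this paragraph held without any 1 library.

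Between the lines in control tumors, where 2.25% of all genes were called, edgeR called 3 of 72 tested pathway genes (20 at an unadjusted p under 0.05, 7 by DESeq2) and 3 of 68 marker genes (17 unadjusted, 9 by DESeq2). *Ptgds*, a prostaglandin D synthase, was 1.35 ± 1.44 CPM in parental and 0.0147 ± 0.0328 CPM in GR KO control tumors (SD, n = 5 each), and edgeR called it lower in GR KO (adjusted p = 0.0252). That call was lost without GR KO replicate 2 (-5.95, edgeR adjusted p = 0.0703) or parental replicate 1 (-5.31, edgeR adjusted p = 0.0564). *Anxa8* was 0.80 (SE 0.20, edgeR adjusted p = 0.0342), *Kdr* 0.98 (SE 0.26, edgeR adjusted p = 0.0472), *Nr4a2* -1.22 (SE 0.33, edgeR adjusted p = 0.0482), *Krt1* -1.21 (SE 0.31, edgeR adjusted p = 0.0422) and *Col3a1* -0.997 (SE 0.22, edgeR adjusted p = 0.0252). All 5 lay close to the threshold. With detected genes as a covariate, all genes called in this comparison fell from 358 to 51, and no value with that covariate is given for the genes named here. *Anxa8* lost its call without GR KO replicate 1, 2 or 3 or parental replicate 1, 2, 3 or 4 (0.68 to 0.82, edgeR adjusted p = 0.0670 to 0.109). *Kdr* (0.81 to 1.14, edgeR adjusted p = 0.0576 to 0.134) and *Nr4a2* (-1.31 to -1.10, edgeR adjusted p = 0.0593 to 0.127) lost it without any 1 library but GR KO replicate 4. *Krt1* lost it without GR KO replicate 1, 2, 3 or 5 or parental replicate 1, 2, 3 or 4 (-1.27 to -0.91, edgeR adjusted p = 0.0600 to 0.117), and *Col3a1* without GR KO replicate 1 or 2 or parental replicate 2, 3 or 4 (-0.98 to -0.91, edgeR adjusted p = 0.0561 to 0.0703). Between the lines in GC tumors, where 0.634% of all genes were called, edgeR called 2 of 72 pathway genes (11 unadjusted, 5 by DESeq2) and 2 of 68 marker genes (20 unadjusted, 7 by DESeq2). *Ptgfr* was -1.60 (SE 0.33, edgeR adjusted p = 0.0203) and *Pde4b* -1.12 (SE 0.24, edgeR adjusted p = 0.0256) in GR KO against parental tumors. *Ptgfr* lost its call without GR KO GC replicate 1 or 5 or parental GC replicate 2, 3 or 4 (-1.64 to -1.43, edgeR adjusted p = 0.0544 to 0.0809). *Pde4b* lost it without GR KO GC replicate 2, 3, 4 or 5 or parental GC replicate 3 or 5 (-1.12 to -0.93, edgeR adjusted p = 0.0544 to 0.0981). Both marker genes were of mast cells, *Mcpt4* at -1.38 (SE 0.24, edgeR adjusted p = 0.00517), from 55.6 ± 13.7 to 21.4 ± 5.78 CPM (SD, n = 5 each), and *Tpsb2* at -1.29 (SE 0.26, edgeR adjusted p = 0.0194), which makes 2 of 7 tested mast cell genes. All 7 had negative values, with a median of -1.08 against 0.01 over all genes. *Mcpt4* kept its call without each of the 10 libraries in turn. *Tpsb2* lost it without GR KO GC replicate 1, 3 or 5 or parental GC replicate 2 or 4 (-1.31 to -1.06, edgeR adjusted p = 0.0500 to 0.0748). Between control tumors and DMSO cells, 13 of 16 phospholipase genes were called in each line, 10 higher and 3 lower in tumors, where 46.7% (parental) and 54.8% (GR KO) of all genes were called. Marker genes were higher in tumors by edgeR, in each line for 8 of 9 neutrophil, 9 of 10 macrophage, 7 of 7 mast cell, 6 of 6 T cell, 3 of 4 platelet, 8 of 8 keratinocyte, 7 of 7 fibroblast, 7 of 7 endothelial and 5 of 5 muscle genes. So were melanocyte genes, 5 of 5 in the parental line and 4 of 5 in GR KO. The contrast was thus not limited to host markers, and fibroblast genes were also read in cultures.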
